A study of Mus musculus with 25 samples.

Results

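The change of the transcriptome between the pronuclear zygote and the early 2-cell embryo was measured in mouse embryos that lack maternal Smarca4. The comparison sets the 3 Smarca4 knockout libraries of early 2-cell embryos (KO E2C) against the 4 Smarca4 knockout libraries of PN3 zygotes (KO PN3), as named by the sample titles, and it uses 7 of the 25 libraries of the series. It asks which early activation and which early decay take place without Smarca4. The deposited unit is FPKM, an abundance normalised by the authors to transcript length and library size. Of 24412 gene symbols listed, 9782 reached an FPKM of 1 in 3 or more of these 7 libraries and were tested. The wild-type early 2-cell libraries (WT E2C, 3) and PN3 libraries (WT PN3, 4) were used to see where the knockout change differs. Per the labels' protocols, oocytes came from superovulated females 8 to 12 weeks old, either Smarca4flox/flox Gdf9 Cre animals on C57BL/6 or B6D2F1 hybrids, and sperm was injected into the oocyte. Females received 7 IU of PMSG and 48 h later 5 IU of hCG. Which strain stands behind a library, and the genotype of the males, were not given in the sources used here. Strain and genotype therefore cannot be told apart between KO and WT. Both KO stages have the same genotype label. Gdf9-driven Cre acts in the growing oocyte, so the deletion is maternal, and an allele brought by the sperm would be intact if the male was wild type. The labels do not state if the replicates are separate pools of embryos, and the p-values reflect the spread among the deposited libraries, possibly a technical one.

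Smarca4 (Brg1) is the ATPase of the BAF complex, a remodeler that moves and ejects nucleosomes. The fertilised egg starts with RNA stored by the oocyte. Its own genome is first read at a low level in the zygote and then strongly at the 2-cell stage, which is called zygotic genome activation. In mouse, genes such as Dux, the Zscan4 cluster, Zfp352 and the Usp17l and Tdpoz families form a short-lived 2-cell programme, while stored mRNAs are deadenylated and degraded, in part through the adaptor Btg4 and the CCR4-NOT complex.

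FPKM values carry no read counts, so the depth of each library is unknown and no counting error can be given. The values are shares of a library, so total RNA per embryo is not seen, and fewer copies per embryo cannot be told apart from dilution by other RNA. FPKM summed to between 216981 and 227796 in the KO E2C libraries and to between 232841 and 238952 in the KO PN3 libraries. Within a group, the median SD of a gene was 0.242 (log2) in KO E2C and 0.125 in KO PN3. E2C replicate 3 stood apart: its levels correlated at 0.955 with each of the other E2C libraries, which correlated at 0.971 with each other (across genes, which are not independent replicates), and it had the highest 45S pre-ribosomal RNA (Rn45s) and the highest Smarca4. PN3 replicates 1 and 2 lay apart from replicates 3 and 4 in 63.1% of the genes tested. Values without any split would also lie apart in a part of the genes, a share that was not computed. Levels correlated at 0.994 within each of these pairs and at 0.985 to 0.990 between them. The labels name no batch behind either split. All 12 oocyte and zygote identity markers passed the filter, as did 48 of 61 2-cell genes. Markers of other cells were low in both stages: of 22 cumulus and granulosa genes, 22 sperm and testis genes and 21 blood and immune genes, 1 each was tested and none was called. Summed scaled FPKM of the cumulus list was 5.06 to 6.57 in KO E2C and 4.72 to 6.26 in KO PN3, of the sperm list 3.38 to 22.6 in KO E2C and 8.30 to 10.96 in KO PN3, and of the blood list 3.59 to 5.83 in KO E2C and 3.38 to 6.41 in KO PN3.

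Smarca4 itself (chromosome 9, 21616106 to 21704230, GRCm38.p6, a protein-coding gene) was lower in every knockout library than in every wild-type library of its stage. Scaled FPKM was 1.83, 0.771 and 5.14 in KO E2C, against 0.333, 0.450, 0.260 and 0.223 in KO PN3. Every E2C library was above every PN3 library, with the highest value in E2C replicate 3. Wild-type libraries had 31.6, 35.1 and 19.1 in E2C and 29.8, 30.8, 30.9 and 33.3 in PN3. The labels do not name the deleted exons, so gene-level values check the genotype only in part. The gene reached an FPKM of 1 in only 2 of the 7 libraries, so it was not tested between the KO stages. In the fit over 14 libraries its KO change minus its WT change was 1.42 (log2, limma adjusted p = 0.946). Smarca2, the paralogous ATPase of the same complex, had 69.7, 63.4 and 59.0 in KO E2C, against 61.5, 64.0, 46.9 and 47.4 in KO PN3. These groups overlapped and the difference of 0.23 ± 0.20 (log2 ± SE) did not pass the test (limma adjusted p = 0.399).

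The promoters of 3 genes described below are printed first, because each stands for a group that rose: Zfp352 and Zscan4d for the 2-cell genes, and the histone gene Hist1h2bm. Each is the 250 bases before the start in RefSeq, GRCm38.p6, 5′ to 3′ on the strand of the gene, at chr4:90218570-90218819 (plus strand), chr7:11166149-11166398 (minus strand) and chr13:21721794-21722043 (plus strand). Capitals mark 4 motifs on either strand: GGATTA, the core read by Otx-like and Obox-like homeodomain proteins, the TATA box TATAAA, the octamer ATTTGCAT read by Oct factors, and CCAAT, read by NF-Y.
Zfp352: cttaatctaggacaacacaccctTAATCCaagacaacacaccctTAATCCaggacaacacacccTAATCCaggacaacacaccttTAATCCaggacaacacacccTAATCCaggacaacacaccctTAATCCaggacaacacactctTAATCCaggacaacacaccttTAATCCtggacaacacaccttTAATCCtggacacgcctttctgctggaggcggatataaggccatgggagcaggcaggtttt
Zscan4d: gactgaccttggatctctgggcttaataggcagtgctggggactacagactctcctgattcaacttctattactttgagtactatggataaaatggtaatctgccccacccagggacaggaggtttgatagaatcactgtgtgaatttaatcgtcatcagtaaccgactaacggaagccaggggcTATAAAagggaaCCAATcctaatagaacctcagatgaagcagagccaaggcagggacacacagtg
Hist1h2bm: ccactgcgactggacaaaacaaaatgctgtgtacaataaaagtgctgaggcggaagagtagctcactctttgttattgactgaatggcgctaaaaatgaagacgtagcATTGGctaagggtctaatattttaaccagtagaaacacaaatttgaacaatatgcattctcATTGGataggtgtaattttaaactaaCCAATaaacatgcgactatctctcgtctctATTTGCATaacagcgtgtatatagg

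The Zfp352 window held 9 copies of TAATCC, which is GGATTA on the other strand, in a tandem repeat. The Zscan4d window held 1 TATAAA with 1 CCAAT just after it. The Hist1h2bm window held 1 ATTTGCAT and 3 copies of CCAAT or ATTGG. A match is a description of letters and not a binding site. Over RefSeq windows of 300 bases (250 before to 50 after the start), 55 of the 60 histone genes tested had an entry. TATAAA was in 58.2% of these 55, ATTTGCAT in 23.6% and CCAAT in 87.3%, against 15.7%, 1.97% and 41.1% of all 27025 promoters in the table. For the genes that rose most the same count is void, since 64 of 95 had an entry, as had 30 of the 48 2-cell genes tested. Among those with an entry, GGATTA was in 25 of 64 and in 13 of 30, TATAAA in 16 and 7, ATTTGCAT in 0 and 0, and CCAAT in 41 and 19. GGATTA was in 8.14% of all 27025 promoters. With so many entries missing, these counts cannot show an excess of any motif. The motifs do not contain one another.

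Between the knockout stages, 1338 genes were higher in E2C (13.7% of the genes tested) and 2186 were lower (22.3%), so 36% were called by limma at an adjusted p under 0.05. The libraries of the stages did not overlap for 49.8% of the genes, with E2C above PN3 for 21.1% and below it for 28.7%. Large differences ran the other way in number: 95 genes rose by at least 2 on the log2 scale (0.971%) and 32 fell by at least 2 (0.327%). The median of all genes tested was -0.06, and all log2 differences are on the log2(scaled FPKM + 1) scale, which understates the change of low genes. With FPKM as deposited, 21.1% of the calls were higher, against 38% with scaled values, and the median of all genes was -0.19. The counts also rest on the small E2C group. Without E2C replicate 1 they were 321 higher and 930 lower, and without E2C replicate 2 they were 437 and 1103. All 3344 earlier calls that were still tested without replicate 1 kept their direction, and 1241 stayed past the threshold. With 2 E2C libraries a gene that is off in PN3 cannot reach 3 libraries, so such genes leave the test.

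**Figure D1:**
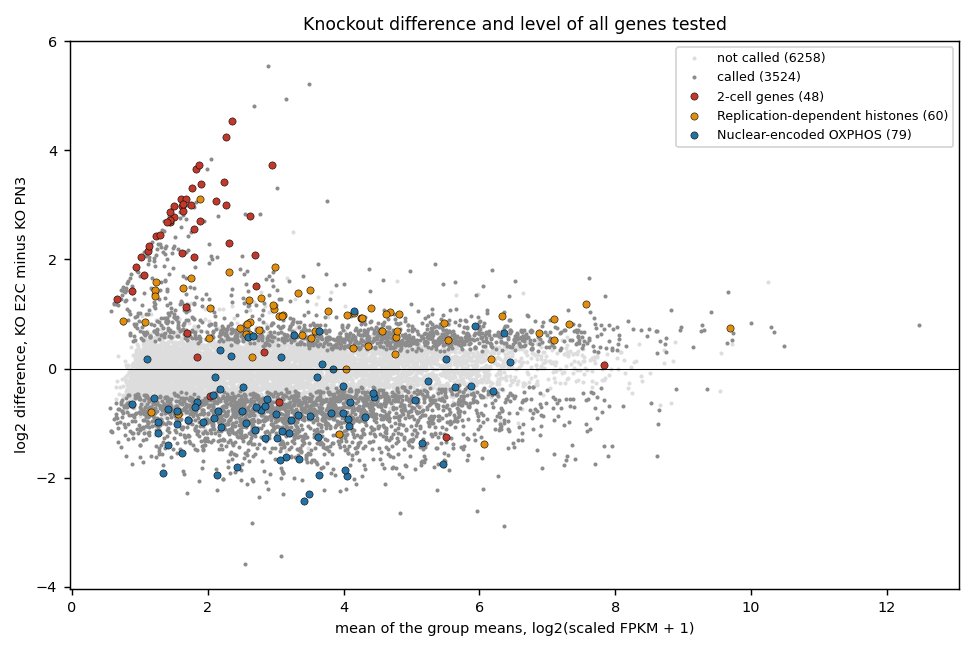
Difference between KO E2C and KO PN3 (y axis, log2) against level (x axis, mean of the group means of log2(scaled FPKM + 1)) for the 9782 genes tested. The 2-cell genes (red) lie at low level and high positive difference, most histone genes (orange) lie above 0, and most respiratory chain genes (blue) lie below 0.

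The 2-cell programme appeared in the knockout. Of 61 listed genes, 48 passed the filter, of which 34 did so only through the E2C libraries, where such genes had to be high. Over all 61, every E2C library exceeded every PN3 library for 48 genes and the reverse held for 1. Over all 24412 genes listed, of which 9782 were tested, these numbers were 2978 and 3256. Of the 48 tested 2-cell genes, 41 rose (85.4%) and 1 fell (2.08%), beside 13.7% and 22.3% of all genes tested. The median difference of these 48 was 2.62, beside -0.06 for all genes tested. Without E2C replicate 1, 2 or 3 the filter left 15 of them, whose medians were 1.03, 0.79 and 0.84. Of these 15, 8 rose in each case, and 1, 1 and 3 fell. These genes were chosen with earlier results on these samples known, so the count is a description.

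Zfp352 (chromosome 4, 90218820 to 90225687), a zinc finger gene used as a 2-cell marker, had 19.5, 12.9 and 31.2 in KO E2C, against 0.151, 0.202, 0.0628 and 0.0274 in KO PN3. It was close to 0 in all 4 zygote libraries and rose by 4.24 ± 0.23 (limma adjusted p = 1.02e-05). Usp17lc (chromosome 7, 103416696 to 103419174), which encodes a deubiquitinase of a multicopy family, had 20.3, 30.2 and 32.0 in KO E2C, against 1.35, 1.65, 0.508 and 1.13 in KO PN3. The 5 Usp17l genes rose by 2.70 to 3.73, of which 4 passed the filter only through E2C. Zscan4d (chromosome 7, 11161643 to 11166148), a telomere-associated zinc finger gene, had 11.8, 8.87 and 32.9 in KO E2C, against 1.55, 1.10, 1.55 and 1.20 in KO PN3. Its highest value was again in E2C replicate 3, and it rose by 2.79 ± 0.31 (limma adjusted p = 0.00024). The 5 Zscan4 genes rose by 2.56 to 3.08, and 4 of them passed the filter only through E2C. Members of both families are near-identical copies, so reads may be split among them and the values of single members are uncertain.

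Tmem92, a 2-cell marker that encodes a membrane protein, had 5.68, 4.42 and 8.57 in KO E2C, against 0.783, 0.708, 0.831 and 0.531 in KO PN3, and rose by 2.04 ± 0.20 (limma adjusted p = 0.000131). Tcstv1 and Tcstv3 were already expressed in the zygote. Tcstv1 had 18.3, 31.2 and 29.0 in KO E2C, against 13.2, 13.7, 13.3 and 11.5 in KO PN3. It rose by 0.93, and Tcstv3 rose by 1.5. Of 5 Tdpoz genes 3 passed the filter, all through E2C alone, and their differences were 1.28 to 2.43. The single 2-cell gene that fell was Arg2, which encodes mitochondrial arginase, with 28.5, 26.2 and 30.2 in KO E2C, against 65.7, 69.1, 69.8 and 72.6 in KO PN3. The 6 tested genes that were not called were Cml2, D5Ertd577e, Pramef17, Rpl39l, Snai1 and Sp110. Sp110 stood at 217, 251.5 and 229 in KO E2C, against 228, 233, 205 and 223 in KO PN3.

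**Figure D2:**
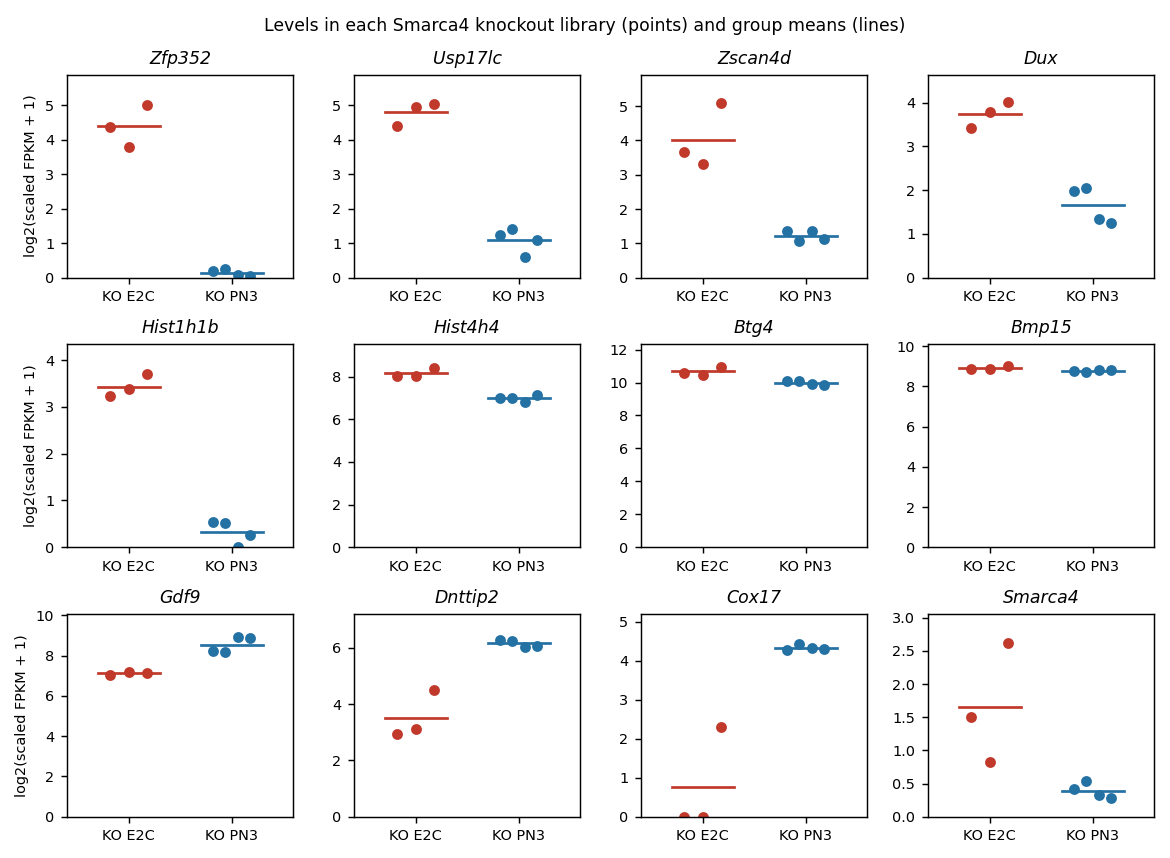
Levels of 12 genes in each KO E2C library (red, n = 3) and KO PN3 library (blue, n = 4) as log2(scaled FPKM + 1), with group means as lines. Zfp352, Usp17lc, Zscan4d, Dux, Hist1h1b, Hist4h4 and Btg4 are higher in E2C, Gdf9, Dnttip2 and Cox17 are lower, Bmp15 did not pass the test, and Smarca4 was not tested.

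Dux, the homeobox activator of the 2-cell programme, was present in the zygote and higher later, with 9.75, 12.8 and 15.1 in KO E2C, against 2.94, 3.17, 1.55 and 1.39 in KO PN3. The groups did not overlap and the difference was 2.08 ± 0.34 (limma adjusted p = 0.00159). Dppa2 and Dppa4, which activate Dux in mouse embryonic stem cells, differed by -0.08 ± 0.19 and 0.11 ± 0.16 and were not called (limma adjusted p = 0.767 and 0.618). Of 25 tested activation factors 9 rose (36%) and 3 fell (12%), beside 13.7% and 22.3% of all genes tested. The median of the activation factors was 0.28. Their counts were 3 and 1 without E2C replicate 1, and 2 and 1 without replicate 2. Klf5, a Krüppel-like factor of the early embryo, had 6.27, 2.16 and 2.83 in KO E2C, against 0.169, 0.299, 0.154 and 0.228 in KO PN3, and rose by 1.88 ± 0.24. The homeobox gene Crxos rose by 1.43 and the H3K4 demethylase gene Kdm5b by 1.43. Klf17, a maternal Krüppel-like factor, rose by 0.50 (limma adjusted p = 0.00501), a call that was lost without E2C replicate 2 (0.43, limma adjusted p = 0.0617) and with FPKM as deposited (0.34, limma adjusted p = 0.0575).

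Nr5a2, an orphan nuclear receptor, had 11.2, 11.3 and 13.9 in KO E2C, against 11.8, 11.4, 10.4 and 11.2 in KO PN3. The groups overlapped and the difference of 0.10 ± 0.14 did not pass the test. Nfya, the DNA-contacting subunit of NF-Y, fell by 1.47 ± 0.10, with 29.1, 32.8 and 32.9 in KO E2C, against 87.6, 90.7, 89.9 and 88.2 in KO PN3. Of 5 tested Obox genes, oocyte homeobox genes of which some are needed for activation in mouse, 3 rose and 1 fell (2 and 0 without E2C replicate 1). Obox5 had 647, 549.9 and 795 in KO E2C, against 339.9, 324, 309.8 and 271 in KO PN3, and Obox3 had 1.16, 2.47 and 7.84 in KO E2C, against 0.795, 0.609, 0.638 and 0.537 in KO PN3. Their differences were 1.08 and 1.30. Obox2 fell by 0.68, and its call was lost without E2C replicate 1 (-0.47, limma adjusted p = 0.0639). Among 16 tested pluripotency and lineage genes 6 rose and 2 fell (2 and 1 without E2C replicate 1, 2 and 0 without replicate 2). These shares were 37.5% and 12.5%, and those of the Obox genes 60% and 20%, beside 13.7% and 22.3% of all genes tested. Pou5f1, the pluripotency factor Oct4, rose by 0.58 ± 0.11, with 221, 191 and 226 in KO E2C, against 139, 138, 142 and 150.2 in KO PN3.

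Replication-dependent histone genes were called in 1 direction. Of 68 listed, 60 were tested, 8 of them only through E2C. Of those 60, 35 rose (58.3%, beside 13.7% of all genes tested), 0 fell and 25 were not called, and the median was 0.86. The counts fell without single libraries (11, 11 and 22 rose of 54 tested without E2C replicates 1, 2 and 3, 27 rose and 1 fell with FPKM as deposited, and 18 rose of 66 with no filter on low values). Over all 68, every E2C library exceeded every PN3 library for 40 genes and the reverse held for 1. Over all 24412 genes listed, of which 9782 were tested, these numbers were 2978 and 3256. Rises covered every class: 14 of 18 H2A genes, 8 of 15 H2B genes, 4 of 10 H3 genes, 5 of 11 H4 genes and 4 of 6 linker histone genes. Hist1h1b (chromosome 13, 21779832 to 21780625), a linker histone gene, had 8.33, 9.45 and 11.9 in KO E2C, against 0.444, 0.430, 0 and 0.207 in KO PN3, and rose by 3.10 ± 0.24 (limma adjusted p = 3.57e-05). The linker histone gene Hist1h1a was abundant in both stages, with 1072, 979 and 1142 in KO E2C, against 542, 541, 739.6 and 748 in KO PN3. Hist1h2bm, whose promoter is shown, had 4.17, 4.51 and 6.43 in KO E2C, against 0.515, 0.747, 0.760 and 1.71 in KO PN3, and rose by 1.66 ± 0.31. Hist1h2an and Hist1h2af rose by 1.86 and 1.78. Histone genes are near-identical in part, and Hist2h2aa1 and Hist2h2aa2, which pair as copies, varied widely among replicates. Hist2h2aa1 had 28.5, 10.8 and 206 in KO E2C, against 51.0, 64.4, 148 and 269.8 in KO PN3. The libraries were made from rRNA-depleted total RNA, so histone mRNA without a poly(A) tail was sampled.

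Among 23 tested histone variants and non-clustered linker histone genes, 5 rose and 6 fell (3 and 3 without E2C replicate 1, 4 and 3 without replicate 2, 5 and 10 with FPKM as deposited), and the order turned to 7 and 5 with scaling over the 7 libraries alone. The shares in the main fit were 21.7% and 26.1%, beside 13.7% and 22.3% of all genes tested. The variant genes H2afz and H2afx rose by 1.22 and 0.92, the call of H2afx being lost without E2C replicate 1 or 2. The oocyte linker histone gene H1foo fell by 1.74, with 76.5, 96.4 and 193 in KO E2C, against 284, 286, 492 and 515 in KO PN3 (limma adjusted p = 0.0131, and 0.0977 and 0.0827 without E2C replicates 1 and 2). Chaf1a, the large subunit of the histone chaperone CAF-1, fell by 0.87, and H3f3a, a gene for H3.3, fell by 0.75.

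Of all listed genes, 119 were under a scaled FPKM of 0.5 in all 4 KO PN3 libraries and at 1 or more in all 3 KO E2C libraries. These included 27 of the 2-cell list and 2 histone genes. Of the 119, 19 reached 5 in every E2C library, among them Zfp352, Hist1h1b, Ttc30b, Spz1, Ficd, Pramef25, Usp17la and Usp17lb. Ttc30b, an intraflagellar transport gene, had 8.49, 7.92 and 9.75 in KO E2C, against 0.218, 0.395, 0.151 and 0.206 in KO PN3. Ficd, which encodes the enzyme that AMPylates the chaperone BiP, had 6.04, 7.30 and 8.59 in KO E2C, against 0.209, 0.227, 0.307 and 0.221 in KO PN3. Hexim1, an inhibitor of the elongation factor P-TEFb, had 5.64, 3.18 and 6.88 in KO E2C, against 0.326, 0.292, 0.400 and 0.184 in KO PN3. The other onset genes included the AP-1 subunit gene Jun, the homeobox genes Msx1 and Lmx1a, the importin gene Kpna1, the lactate dehydrogenase gene Ldha and the co-chaperone gene Bag3. Genes outside the rule were named here after their values were seen. In the reverse direction, 13 genes were at 1 or more in all PN3 libraries and under 0.5 in all E2C libraries, among them Mettl5, Timm13, Ormdl1 and Mgmt. The largest difference of all, also noted after the values were seen, was that of the predicted gene Gm21293, with 32.1, 46.6 and 80.4 in KO E2C, against 0.115, 0.144, 0.0548 and 0 in KO PN3.

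Beyond these groups the strongest rises by the naming rule were those of Rmrp, Mt2 and Bex6. Rmrp (chromosome 4, 43492785 to 43493059), the RNA of RNase MRP, had 31.6, 38.7 and 46.3 in KO E2C, against 3.21, 2.92, 4.25 and 4.47 in KO PN3, and rose by 3.08 ± 0.22 (limma adjusted p = 2.36e-05). Mt2, a metallothionein gene, had 10.7, 7.83 and 9.37 in KO E2C, against 0.260, 0.834, 0 and 0 in KO PN3. Slc34a2, a phosphate transporter gene, rose by 2.59, with 6.98, 4.31 and 8.75 in KO E2C, against 0.239, 0.108, 0.370 and 0.229 in KO PN3. Of 136 tested solute carrier genes, 25 of them tested only through PN3, 10 rose (7.35%) and 35 fell (25.7%), beside 13.7% and 22.3% of all genes tested. The solute carrier counts were 0 and 10 without E2C replicate 1, 2 and 14 without replicate 2, and 6 and 35 without replicate 3. Of 210 tested Zfp genes, 29 of them tested only through PN3, 23 rose and 35 fell, which is 10.95% and 16.7%, beside 13.7% and 22.3% of all genes tested. These counts were 3 and 14 without E2C replicate 1, 8 and 20 without replicate 2, and 15 and 45 with FPKM as deposited. Among the most abundant mRNAs, Zbed3 and Mphosph6 were higher in every E2C library than in every PN3 library, while Ldhb, described below, was not called. Zbed3 had 8239, 7664 and 6618 in KO E2C, against 4209, 4179, 4425 and 4466 in KO PN3, and Mphosph6 had 1526, 1339 and 2138 in KO E2C, against 1011, 996, 855 and 1027 in KO PN3. Rn45s had 817, 1035 and 10970 in KO E2C, against 751, 466, 717 and 968 in KO PN3, with E2C replicate 3 alone far above the PN3 range, and its difference of 1.58 ± 0.80 did not pass the test (limma adjusted p = 0.165).

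Stored oocyte mRNAs moved in both directions. Of 73 tested oocyte and maternal effect genes, 21 rose (28.8%) and 25 fell (34.25%), at a median of -0.09. Among all genes tested 13.7% rose and 22.3% fell. The oocyte and maternal effect counts were 14 and 12 without E2C replicate 1. Among the 12 markers of oocyte and zygote identity 0 rose and 9 fell (75%), at a median of -0.82 (7, 8 and 10 fell without E2C replicates 1, 2 and 3). The zona pellucida gene Zp3 had 19.5, 20.1 and 16.5 in KO E2C, against 32.1, 31.8, 38.9 and 39.7 in KO PN3, and fell by 0.89 ± 0.17 (limma adjusted p = 0.00305). Gdf9 (chromosome 11, 53430774 to 53437904), an oocyte growth factor gene, had 133, 144 and 140.2 in KO E2C, against 296, 292, 481 and 467 in KO PN3. It fell by 1.42 ± 0.30 (limma adjusted p = 0.006), and by 1.39 with a limma adjusted p of 0.063 without E2C replicate 1. Its related partner Bmp15 had 472, 459 and 514 in KO E2C, against 437, 416, 449.5 and 449 in KO PN3, and its difference of 0.14 ± 0.10 did not pass the test.

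Zar1, which binds stored mRNA, fell by 1.76 ± 0.31, with 78.4, 85.2 and 80.3 in KO E2C, against 220.1, 215.5, 343 and 364 in KO PN3. Its paralog Zar1l fell by 1.82 and Pabpn1l, a poly(A) binding protein of the oocyte, fell by 1.80. The maternal effect genes Padi6, Ooep and Nlrp5, picked here from the list, had log2 differences of -1.68, -1.10 and -0.63. The meiotic arrest kinase Mos fell by 1.20 ± 0.25, with 3.29, 2.56 and 2.29 in KO E2C, against 6.598, 5.85, 8.70 and 9.36 in KO PN3. The nuclear chaperone Npm2 fell by 0.76 (limma adjusted p = 0.00547), a call lost without E2C replicate 1 or 2 (limma adjusted p = 0.0653 and 0.0554). Among those that rose were all 5 Tcl1b genes, paralogs of the AKT cofactor Tcl1, by 0.61 to 1.09. Tcl1b2 had 145, 137 and 154 in KO E2C, against 75.3, 70.1, 74.6 and 77.8 in KO PN3. Dppa3, which guards DNA methylation in the zygote, stood at 868, 840.4 and 1306 in KO E2C, against 804, 787, 726 and 579 in KO PN3, and was not called (0.45 ± 0.20, limma adjusted p = 0.108). Bcl2l10, an anti-apoptotic gene of the oocyte, rose by 0.47 (limma adjusted p = 0.0244), and the call was lost without any 1 of the 3 E2C libraries (limma adjusted p = 0.0541 to 0.106).

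**Figure D3:**
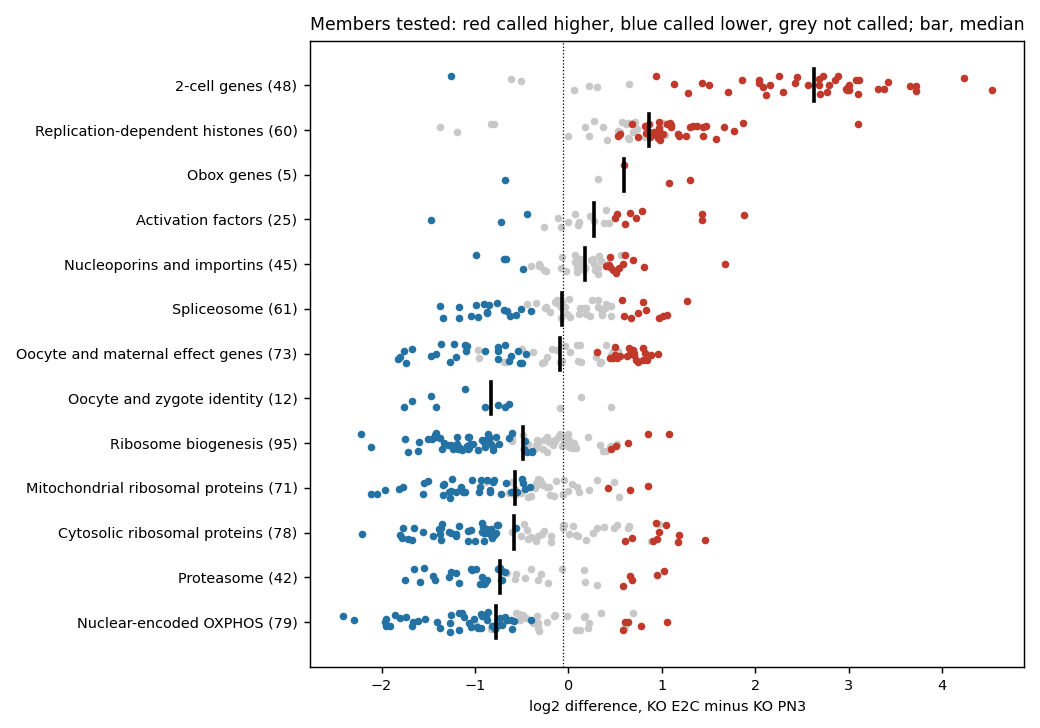
Log2 difference between KO E2C and KO PN3 (x axis) for the tested members of 13 gene lists (number tested in brackets), with the median of each list as a bar and the median of all genes tested as a dotted line. The 2-cell list centres on 2.62 and the histone list on 0.86, and the respiratory chain list on -0.77.

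The machinery of mRNA clearance was itself mixed. Of 45 tested clearance factors 9 rose (20%) and 6 fell (13.3%), at a median of 0.08. Among all genes tested 13.7% rose and 22.3% fell. The order among clearance factors turned to 6 and 9 with FPKM as deposited and to 6 and 7 with TPM. Their counts were 4 and 4 without E2C replicate 1, and 5 and 4 without replicate 2. Btg4 (chromosome 9, 51102147 to 51119924) had 1536, 1430 and 1991 in KO E2C, against 1108, 1086, 978 and 935 in KO PN3, and rose by 0.67 ± 0.14 (limma adjusted p = 0.00519). The deadenylase subunit Pan3 rose by 0.85 ± 0.14. The m6A methyltransferase subunit Mettl14 fell by 1.53 ± 0.19, with 3.36, 2.82 and 4.31 in KO E2C, against 11.9, 13.8, 11.9 and 10.0 in KO PN3. The mRNA binding protein gene Igf2bp2 fell by 1.31 and the decapping activator Dcp1a fell by 0.95.

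The strongest falls included genes of very different function. Cox17 (chromosome 16, 38346983 to 38352763), the copper chaperone of cytochrome c oxidase, had 0, 0 and 3.90 in KO E2C, against 18.4, 20.6, 19 and 18.9 in KO PN3, and fell by 3.57 ± 0.39 (limma adjusted p = 0.000229). Rnaset2a and Rnaset2b, near-identical RNase T2 genes whose reads may be split, had log2 differences of -3.44 and -2.20. Dnttip2 (chromosome 3, 122274414 to 122285271), a nucleolar protein gene, had 6.64, 7.59 and 21.6 in KO E2C, against 76.6, 75.3, 65.1 and 65.5 in KO PN3. Zcrb1, of the minor spliceosome, had 15.6, 14.1 and 64.7 in KO E2C, against 147, 163, 148 and 158 in KO PN3. In each of Cox17, Dnttip2 and Zcrb1 the highest E2C value was that of replicate 3. Txnip, the thioredoxin-interacting protein, fell by 2.20 ± 0.20, with 23.7, 32.4 and 34.4 in KO E2C, against 159, 161, 125 and 123 in KO PN3. Dnmt1, the maintenance DNA methyltransferase, had 87.0, 115 and 84.2 in KO E2C, against 280.1, 291, 305 and 329.9 in KO PN3, and fell by 1.66 ± 0.14. The arginyl-tRNA synthetase gene Rars fell by 2.25 and the Integrator subunit gene Ints9 fell by 2.29. The spindle checkpoint kinase Bub1b fell by 2.23 (limma adjusted p = 0.0109), a call lost without E2C replicate 1 or 2 (limma adjusted p = 0.0746 and 0.0751).

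Housekeeping lists for protein synthesis, protein breakdown and respiration were mostly lower in knockout E2C than in knockout PN3. Of 79 tested nuclear-encoded respiratory chain genes (OXPHOS) 5 rose and 48 fell, at a median of -0.77. Of the 79, 14 passed the filter only through PN3, where genes that fall are high, and with no filter 28 fell. Of 78 cytosolic ribosomal protein genes 10 rose and 39 fell, at a median of -0.58, and of 71 mitochondrial ribosomal protein genes 3 rose and 37 fell, at a median of -0.57. Of the 71, 15 passed only through PN3. Of 95 ribosome biogenesis genes 5 rose and 50 fell, at a median of -0.48, and of 42 proteasome genes 5 rose and 24 fell, at a median of -0.73. In this order of lists the shares that fell were 60.8%, 50%, 52.1%, 52.6% and 57.1%, beside 22.3% of all genes tested. The shares that rose were 6.33%, 12.8%, 4.2%, 5.26% and 11.9%, beside 13.7%. Without E2C replicate 1 the genes that fell numbered 21, 15, 17, 33 and 16 in the same order, and without E2C replicate 2 they numbered 24, 24, 19, 38 and 18. Without E2C replicate 3 they numbered 49, 40, 38, 50 and 25. Those that rose numbered 2, 1, 1, 1 and 4 without E2C replicate 1, 2, 4, 1, 1 and 3 without replicate 2, and 3, 4, 1, 2 and 4 without replicate 3. Mean log2 levels over the 81 listed cytosolic ribosomal protein genes were 3.25, 3.36 and 3.90 in KO E2C, against 3.82, 3.79, 4.08 and 4.09 in KO PN3, so E2C replicate 3 lay within the PN3 range. Over the 86 listed OXPHOS genes the means were 2.46, 2.55 and 2.85 in KO E2C, against 3.19, 3.21, 3.36 and 3.40 in KO PN3, with no overlap. Without E2C replicate 3 the medians were -0.87 for OXPHOS and -0.79 for cytosolic ribosomal proteins. That library had the highest E2C mean of both lists, so the medians move down when it is left out. It also had the highest Rn45s, and a link to these lists was not tested.

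Cox4i1, a cytochrome c oxidase subunit, had 3.54, 3.44 and 5.47 in KO E2C, against 20.9, 22.2, 29.4 and 24.3 in KO PN3, and fell by 2.30 ± 0.21. The complex I gene Ndufb4 fell by 2.42. Of 42 tested complex I genes 25 fell (59.5%, beside 22.3% of all genes tested), 12 of the 42 having passed the filter only through PN3. Against this direction, Cox6b2, a testis-type subunit of complex IV, rose by 1.05, a call lost without E2C replicate 1, and Atp5b, the beta subunit of ATP synthase, rose by 0.64, with 102, 95.7 and 107 in KO E2C, against 63.0, 63.1, 65.6 and 66.4 in KO PN3. Rpl13, of the large ribosomal subunit, had 4.57, 6.06 and 10.2 in KO E2C, against 32.3, 28.0, 38.2 and 39.9 in KO PN3, and fell by 2.21 ± 0.24. Of large-subunit genes 4 of 47 rose (8.51%) and 26 fell (55.3%). Of small-subunit genes 6 of 31 rose (19.35%) and 13 fell (41.9%). Among all genes tested 13.7% rose and 22.3% fell. Rplp2, of the ribosomal stalk, rose by 1.04 (call lost without E2C replicate 1 or 2), with 106, 108 and 138 in KO E2C, against 44.5, 48.4, 68.7 and 67.0 in KO PN3. Utp11l, of the small-subunit processome, fell by 2.23 and the nucleolar GTPase Gnl2 fell by 2.11, while Rrs1, an assembly factor of the large subunit, rose by 1.08 (call lost without E2C replicate 2). The proteasome cap genes Psmd12 and Psmc1 fell, with differences of -1.75 and -1.59, and the core gene Psmb6 and the activator genes Psme3 and Psme4 rose by 1.02, 0.68 and 0.66.

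**Figure D4:**
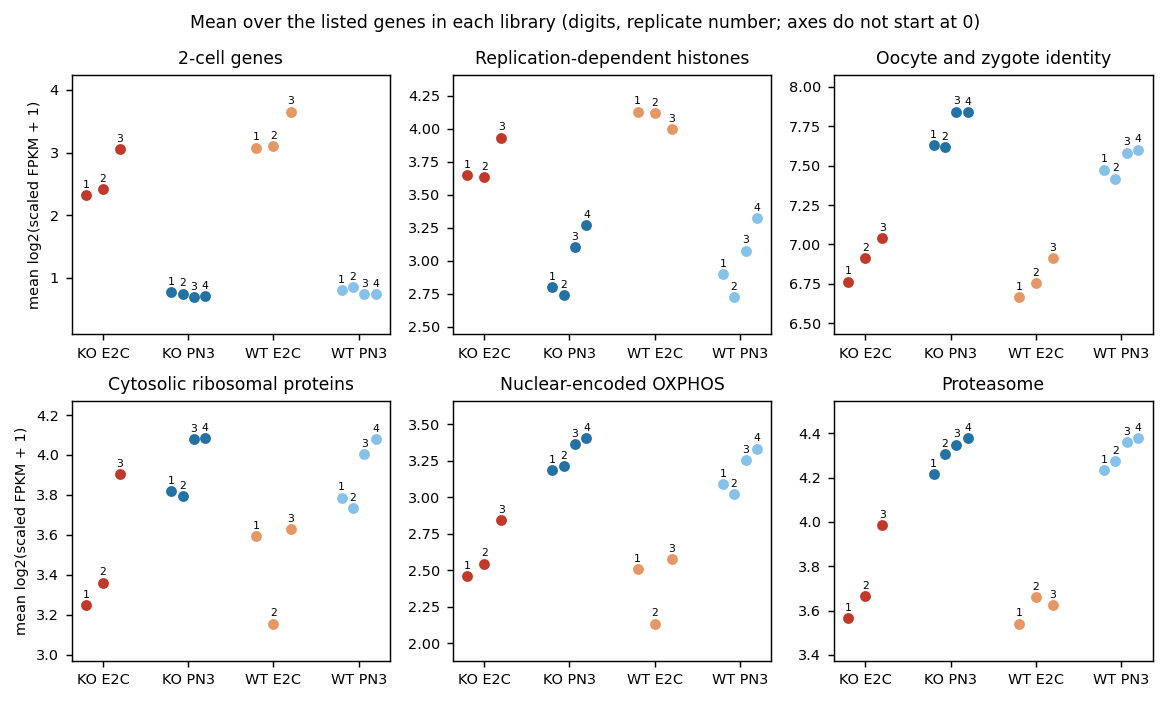
Mean log2(scaled FPKM + 1) over all listed genes of 6 lists in each library of KO E2C, KO PN3, WT E2C and WT PN3, with replicate numbers. Every E2C library lies above every PN3 library of its genotype for the 2-cell and histone lists and below for the oocyte, OXPHOS and proteasome lists, while KO E2C replicate 3 lies among the PN3 libraries for cytosolic ribosomal proteins.

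Genes of transcription and splicing were called in both directions, beside 13.7% higher and 22.3% lower among all genes tested. Of 98 tested RNA polymerase II machinery genes 22 rose (22.4%) and 31 fell (31.6%). These counts were 6 and 14 without E2C replicate 1, 7 and 17 without replicate 2, and 13 and 35 with FPKM as deposited. Polr2a, the catalytic subunit of the polymerase, rose by 0.91, with 13.0, 13.3 and 10.2 in KO E2C, against 5.89, 5.87, 6.25 and 5.95 in KO PN3. The subunit gene Polr2k fell by 2.36, with 2.03, 0.473 and 4.94 in KO E2C, against 17.6, 13.4, 15.8 and 11.2 in KO PN3, and the Mediator subunit gene Med17 fell by 1.78. Of 61 tested spliceosome genes 10 rose (16.4%) and 18 fell (29.5%), with 7 and 9 without E2C replicate 1 and 7 and 11 without replicate 2. The share of spliceosome genes that rose lay close to that of all genes tested. The Sm protein genes Snrpg, Snrpe and Snrpf rose by 1.05, 1.01 and 0.97, while Eftud2 and Prpf3, of the U5 and U4/U6 particles, fell, with differences of -1.38 and -1.34.

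Of 23 tested BAF subunit genes 3 rose and 3 fell (1 and 2 without E2C replicate 1, 2 and 2 without replicate 2, 2 and 4 with FPKM as deposited). Brd7, of the PBAF form, had 81.4, 71.8 and 70.1 in KO E2C, against 42.8, 44.2, 35.2 and 39.0 in KO PN3, and rose by 0.87. Brd9, of the non-canonical form, fell by 0.84, and Smarce1 fell by 0.78. Of 40 other chromatin remodeler genes 6 rose and 5 fell, which turned to 4 and 6 with FPKM as deposited and 4 and 5 with TPM (2 and 2 without E2C replicate 1 or replicate 2, and 3 lower without PN3 replicate 3), with Mta2 and Hdac1 of the NuRD complex higher by 1.39 and 1.20. Of 60 DNA methylation and histone modification genes 11 rose and 5 fell, which turned to 4 and 8 with FPKM as deposited (2 and 3 without E2C replicate 1, 3 and 3 without replicate 2). Kat8, the H4K16 acetyltransferase, fell by 1.82, with 12.8, 13.2 and 14.9 in KO E2C, against 47.4, 48.1, 50.6 and 56.6 in KO PN3. Of 45 nucleoporin and importin genes 12 rose and 4 fell, which turned to 4 and 7 with FPKM as deposited (3 and 1 without E2C replicate 1, 2 and 2 without replicate 2). Kpna1 rose by 1.67, with 2.62, 1.76 and 4.20 in KO E2C, against 0.208, 0.202, 0.147 and 0.134 in KO PN3. Called higher and lower were 13.0% and 13.0% of the BAF genes and 15% and 12.5% of the other remodelers. The shares were 18.3% and 8.33% of the DNA methylation and histone modification genes, and 26.7% and 8.89% of the nucleoporin and importin genes. Among all genes tested they were 13.7% and 22.3%.

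Stress, cell cycle and metabolic genes showed no common direction. Of 33 tested heat shock and chaperonin genes 9 rose and 12 fell (3 and 5 without E2C replicate 1, 2 and 6 without replicate 2, 4 and 12 without replicate 3, 4 and 14 with FPKM as deposited, 5 and 12 with TPM). Hspa2, a testis-rich HSP70, rose by 1.74, with 7.45, 10.6 and 10.99 in KO E2C, against 2.23, 2.68, 1.69 and 2.14 in KO PN3, and Hsp90aa1 fell by 1.61. Of 28 genes of the unfolded protein and integrated stress responses 5 rose and 11 fell (2 and 8 without E2C replicate 1, 3 and 10 without replicate 2, 3 and 12 without replicate 3). Dnajc3 and Pdia6 of the endoplasmic reticulum fell, with differences of -1.95 and -1.83. Of 16 p53 target genes 5 rose and 3 fell (1 and 1 without E2C replicate 1, 2 and 1 without replicate 2). Plk2, a polo-like kinase, rose by 2.01, with 6.54, 8.34 and 7.43 in KO E2C, against 1.34, 1.20, 0.781 and 1.07 in KO PN3. Of 66 cell cycle genes 14 rose (21.2%) and 19 fell (28.8%), beside 13.7% and 22.3% of all genes tested. These counts were 6 and 10 without E2C replicate 1, and 10 and 10 without replicate 2. Cyclin E1 (Ccne1) and the licensing gene Mcm2 were higher by 1.27 and 0.78, and the GINS gene Gins1 was lower at -1.73. Of 18 glycolysis and lactate genes 5 rose and 4 fell, which turned to 2 and 5 with FPKM as deposited and 3 and 5 with TPM. Of the 16 tested without E2C replicate 1, 0 were called by limma, and without replicate 2 it was 1 lower, and without replicate 3 it was 2 higher and 4 lower. Ldha rose by 1.98, with 2.22, 2.94 and 5.55 in KO E2C, against 0.120, 0.238, 0 and 0.0740 in KO PN3, and Ldhb, its abundant maternal paralog, differed by -0.41 and was not called (limma adjusted p = 0.0768). Of the heat shock, stress response, p53 and glycolysis lists, 27.3%, 17.9%, 31.25% and 27.8% of the genes tested rose. In the same order 36.4%, 39.3%, 18.75% and 22.2% fell, beside 13.7% and 22.3% of all genes tested.

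The same stages in wild type were fitted separately on 9754 genes, of which 845 were higher in WT E2C (8.66%) and 1450 lower (14.9%). Without WT E2C replicate 1 these counts were 96 and 419, without replicate 2 they were 855 and 1584, and without replicate 3 they were 187 and 751. WT E2C replicate 2 stood apart. It had 9345 genes above 0 and 8205 at an FPKM of 1 or more, against 13793 and 9739 in replicate 1 and 15560 and 9377 in replicate 3. Across genes its levels correlated at 0.896 and 0.901 with replicates 1 and 3, which correlated at 0.953 with each other. The WT changes given here rest in part on this library. Of 9502 genes tested in both genotypes, 7792 changed in the same direction and the changes correlated at 0.87 across genes (a description, since genes are not independent replicates). Of these, 1849 were called in both, 640 higher and 1209 lower, and none in opposite directions. The KO and WT libraries are separate samples, so no control was shared. By the same rule on size, 153 genes rose (1.57%) and 164 fell (1.68%) by at least 2 in wild type.

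The lists chosen in wild type were then read in the knockout. Of the 153 rising genes 142 were tested in KO and 130 were higher, 0 were lower, and the median KO change was 2.16, against a WT change of 2.996. Of the 164 falling genes 162 were tested in KO and 152 were lower, with a median KO change of -1.57, against a WT change of -2.29. Among all genes tested, 13.7% were higher and 22.3% lower in KO, and 8.66% and 14.9% in WT. A list is favoured in the libraries that chose it, so the reverse was read too. Of the 95 genes rising in KO by at least 2, 89 were tested in WT and all 89 were higher, and the median WT change was 3.49 where the KO change was 2.70. Only 6 of the 89 changed less in WT than in KO. Of the 95, 34 were 2-cell genes. A gene off in the zygote enters a fit only through all 3 E2C libraries, so its direction is largely fixed in advance. How many of the 142 and of the 89 entered in this way was not counted. Of the 32 genes falling in KO, 29 were lower in WT, with a median of -2.45 in WT, against -2.21 in KO, and 11 changed less in WT. The rising counts lean on single libraries. Without KO E2C replicate 1, 2 or 3 they were 35, 31 and 33 of the WT list, where 321, 437 and 1216 of all genes were higher in KO. Without WT E2C replicate 1, 2 or 3 they were 32, 51 and 47, where 96, 855 and 187 of all genes were higher in WT. Genes off in the zygote leave the test in these settings, and genes still tested also lose their call. Of 3524 KO calls, 3344 were still tested without KO E2C replicate 1, and 1241 stayed called. The part of each was not tested. Of the WT-rising genes tested in KO, 12 were not higher there: Hist2h2aa2, Rn45s, Scarna2 and the small nucleolar RNA genes Snora3, Snora24, Snora65, Snord12, Snord33, Snord57, Snord85, Snord87 and Snord99.

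**Figure D5:**
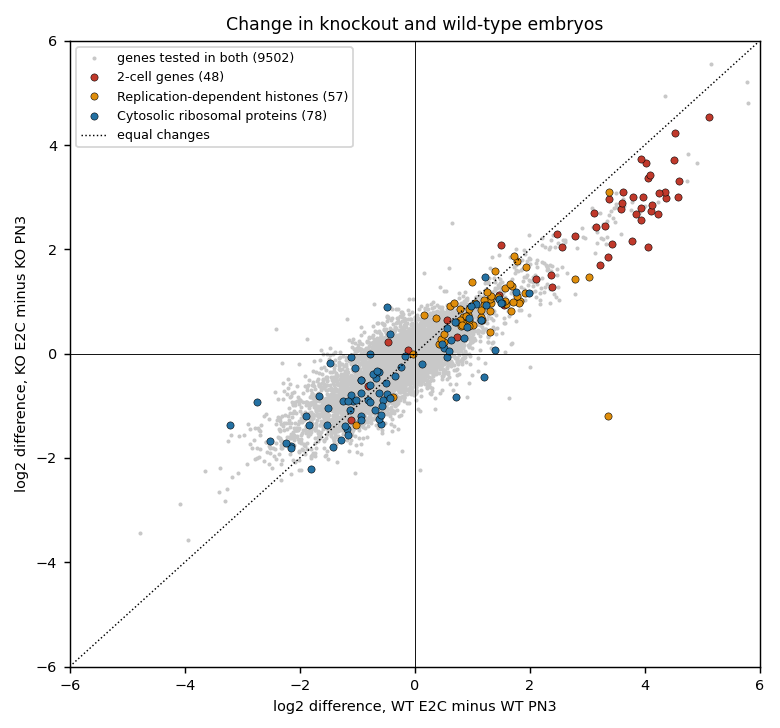
Change from PN3 to E2C in KO (y axis) against the change in WT (x axis), log2, for 9502 genes tested in both, with the line of equal changes. Most 2-cell genes (red) lie below that line on the side where both genotypes rise.

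The difference between the changes was tested itself as an interaction over 14 libraries. No gene of 10365 passed (0%), while 500 had an unadjusted p under 0.05 (4.82%). Of these, 327 were higher (3.15%) and 173 lower (1.67%) in KO than in WT. The lowest adjusted p was that of Tmem92 (chromosome 11, 94777217 to 94782703), whose KO change minus WT change was -2.01 ± 0.33 (limma adjusted p = 0.177), with a KO change of 2.04 and a WT change of 4.05. Tmem92 was called with equal weights (-2.01, limma adjusted p = 0.0386), with a weight per library (-2.20, limma adjusted p = 0.00458) and without KO E2C replicate 3 (-2.23, limma adjusted p = 0.0206). In the last of these Dclk1 and Gm2022 were also called, at -3.41 and -1.97. Over 51 tested 2-cell genes the median of this difference was -0.73, beside 0.04 for all genes, and 17 had an unadjusted p under 0.05, all of them with the smaller change in KO. The 5 Zscan4 genes were among those at an unadjusted p under 0.05, from Zscan4a (-1.57, KO change 3.01, WT change 4.58) to Zscan4d (-1.14, KO change 2.79, WT change 3.93). For Zfp352 the difference was -0.29 ± 0.52, for Dux 0.58 ± 0.67 and for Usp17lc -0.20 ± 0.59, and none of these passed. Over 62 histone genes the median difference was -0.27, with 2 genes at an unadjusted p under 0.05. Misses of the threshold do not show equal changes: in simulated data of this design 22% of genes with a 2-fold difference and 80% of those with a 4-fold difference were recovered.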

How the data were processed

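Total RNA of the libraries was depleted of ribosomal RNA and sequenced as stranded paired-end reads, per the labels' protocols. Per the submitters' processing notes, the genome was mm10, also listed as GRCm38. The tools they list are HTSeq, StringTie, HISAT2 and Trim Galore 0.4.5, whose roles are not stated. The authors deposited 1 FPKM value per gene and library. Low values were not whole multiples of a value per read, so read depth is unknown.

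FPKM was divided by a factor per library, the median ratio over 6492 genes at 1 or more in all 25 libraries. Linear models of log2(scaled FPKM + 1) used R 4.3.3 and limma 3.58.1. They had a mean-variance trend, robust moderation and 1 precision weight per group. Genes at an FPKM of 1 in 3 or more libraries of a fit entered it. Adjusted p is Benjamini-Hochberg over all genes tested, called under 0.05. The KO fit, the WT fit and a fit of the difference over 14 libraries are separate. Figures were drawn with matplotlib 3.10.9.

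In simulated data with 200 changed genes, the KO fit (9782 genes) recovered 90% of 2-fold and 98.6% of 4-fold changes, and 3.38% of its calls were false. For the difference of changes (10365 genes) 8.6% of calls were false. Noise was drawn separately for each gene and library, so splits shared by many genes, as among the PN3 replicates, were not simulated. In the data 36% of the genes were called in the KO fit, so these rates need not hold for its calls.

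The genes named are a watch list, the 15 largest called differences each way with groups apart, a mean of at least 5 in the higher group and no predicted-gene symbol, up to 4 called members each way per list, and the 5 highest means per group. Other named genes were picked for their family or after their values were seen. Members and lists were chosen with earlier results of these data known. Same-numbered replicates did not deviate together, with correlations of -0.0483, -0.106 and -0.0673. The alternatives tried were other scalings, TPM, a pseudocount of 0.1, other filters and weights, all libraries in 1 fit, a replicate block and leaving out each library.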

Additional observations from a re-analysis of the deposited data

Results flagged for a closer look

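Among 78 sets of 4 KO PN3 values (log2 levels of genes and of list means), 2 held a value far from the other PN3 libraries, judged by the gap to the nearest value divided by the range and set against Dixon's critical value at 95%. Chance flags about 1 in 20 such groups. For Pramef25 this ratio was 0.899, with 0.234 scaled FPKM in KO PN3 replicate 1 and 0.109 to 0.121 in the other PN3 libraries. For Bex6 it was 0.920, with 0 in KO PN3 replicate 2 and 0.144 to 0.158 in the other PN3 libraries. All of these values are far under those of the E2C libraries, which were 6.18 to 8.39 for Pramef25 and 4.75 to 11.3 for Bex6.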

How the results depend on the processing

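Leaving out 1 library gave 321 to 1403 higher and 930 to 2232 lower genes in KO, 96 to 930 and 419 to 1584 in WT, and 0 to 3 genes with a lower and 0 with a higher change in KO than in WT. The WT lists read in KO then gave 31 to 136 rising genes called, with a median of 1.4 to 2.2, and 93 to 210 falling genes called, with a median of -1.77 to -1.36. With FPKM as deposited 753 genes were higher in KO, and 539 higher and 2238 lower in WT. With TPM the WT fit gave 563 higher genes, and the WT lists gave 405 falling genes called and a rising median of 3.01. The pseudocount stayed at 1 for TPM, whose values are larger than FPKM here, so differences of low genes were damped less in that setting. A pseudocount of 0.1 gave 313 falling genes and a rising median of 3.37, and a filter at an FPKM of 5 gave 54 rising genes and a median of 2.7. With equal weights 1507 genes were higher in WT and 1 gene had the lower change in KO, and with a weight per library these were 1298 and 1, with a falling median of -1.81. All 25 libraries in 1 fit gave 1920 higher and 2761 lower genes in WT. The WT lists are chosen anew in each setting. The causes were not tested. Of 229 named genes, those that lost their call numbered 51 of 193 still tested without KO E2C replicate 1, 45 of 193 without replicate 2, 18 of 193 without replicate 3, 15 with FPKM as deposited and 26 with no filter. The genes that changed direction were not called. Nr5a2 was at -0.042 with FPKM as deposited and -0.0231 without both KO replicates 3, Dppa4 at -0.0141 and Bmp15 at -0.0225 with FPKM as deposited. Dppa2 ranged from -0.162 without KO PN3 replicate 4 to 0.00443 without KO E2C replicate 2, and was at 0.0845 without KO PN3 replicates 1 and 2. That last setting, chosen after seeing the data, gave 1583 higher and 2260 lower genes, and leaving out replicates 3 and 4 gave 1331 and 1974. The replicate block gave 1193 higher and 1978 lower genes in KO and 0 genes for the difference of changes, and the shared numbers were not taken as pairs. Without KO PN3 replicates 1 and 2 more Zfp genes rose (41) than in the full set (23). Read depth is unknown, so what depth limits cannot be given.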

Other observations

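Some small stable RNA genes were higher in KO E2C. A list of 119 small nucleolar and Cajal body RNA genes, made after the values were seen, had 81 tested members, of which 38 were higher in KO E2C than in KO PN3 (46.9%, beside 13.7% of all genes tested), 0 were lower and 43 were not called. The median was 1.17. Of the 81, 12 passed the filter only through E2C and 11 only through PN3. In WT 40 of 76 were higher, with a median of 1.63. Snora74a, which guides pseudouridylation, had 112, 136 and 162 in KO E2C, against 49.1, 40.4, 25.9 and 39.1 in KO PN3, and rose by 1.81 ± 0.30 (limma adjusted p = 0.00168). Snord15b, a box C/D RNA, had 151, 214 and 124 in KO E2C, against 49.3, 49.9, 45.7 and 62.4 in KO PN3. Neither gene's groups overlapped. Rpph1, the RNA of RNase P, had 1258, 1376 and 1296 in KO E2C, against 437, 536, 502 and 515 in KO PN3, and rose by 1.40 ± 0.13. The vault RNA gene Vaultrc5 rose by 1.66 ± 0.26. These genes are short, many lie in introns of other genes, and FPKM of such genes is sensitive to how fragments are counted, which was not tested.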
